A study of Mus musculus with 12 samples.

Results

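The first stretch of the mouse mitochondrial genome (mtDNA) that is read from the heavy-strand promoter encodes both ribosomal RNAs (rRNAs) and a series of transfer RNAs (tRNAs). The 7 features described here are the rRNAs mt-Rnr1 and mt-Rnr2 and the 5 heavy-strand tRNAs that lie before mt-Nd2, namely mt-Tf, mt-Tv, mt-Tl1, mt-Ti and mt-Tm. They were chosen by position, as the table rows with these names, and all 7 were found among 36 mtDNA features and 54751 features in all. Their levels were compared between whole hearts of mice labelled control and mice labelled knockout for Rexo2, an enzyme that degrades very short RNA fragments in mitochondria and the cytosol.

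All mice were 52 weeks old and of the C57BL/6N strain. The 3 control libraries came from Rexo2loxP/loxP hearts, in which both Rexo2 alleles are flanked by loxP sites. The 3 knockout libraries came from Rexo2loxP/loxP hearts that also carry 1 allele named Ckmm, after the gene of muscle creatine kinase. That promoter is a common driver of Cre in skeletal muscle and heart. Both groups thus share the loxP alleles, the controls lack the Ckmm allele, and its own effect cannot be told apart from a loss of Rexo2. Non-muscle cells of the heart are not a target of such a driver. A library is named by its group and the number in its column, such as control 490, and nothing in the labels ties a library to its own animal, so each p-value speaks only of the spread among these 6 libraries, some of which may be technical. A further 6 samples of the series, which map RNA ends, are not analysed here.

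Mitochondrial transcription runs through this stretch as 1 long precursor in which tRNAs stand between the rRNAs and messenger RNAs (mRNAs). The cuts that free the rRNAs and mRNAs are made at the ends of the tRNAs, by mitochondrial RNase P on the upstream side and by the nuclease ELAC2 on the downstream side. The rRNAs form the cores of the small and large subunits of the mitochondrial ribosome. In heart, where respiratory chain subunits are made at a high rate, they are among the most abundant RNAs of the cell. A site bound by the termination factor MTERF1 lies within mt-Tl1, just downstream of mt-Rnr2.

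The RefSeq annotation of GRCm38.p6 places the features on mtDNA without room between most of them. mt-Tf, the phenylalanine tRNA, runs from 1 to 68, and mt-Rnr1, the rRNA of the small subunit, from 70 to 1024. mt-Tv, the valine tRNA, fills 1025 to 1093, mt-Rnr2, the rRNA of the large subunit, 1094 to 2675, and mt-Tl1, a leucine tRNA, 2676 to 2750. From mt-Rnr1 on, each of these abuts the next, and mt-Nd1, an mRNA for a complex I subunit, follows from 2751 to 3707. mt-Ti, the isoleucine tRNA, runs from 3706 to 3774. It shares 2 bases with the end of mt-Nd1 and 3 with mt-Tq, a tRNA of the opposite strand. mt-Tm, the methionine tRNA, runs from 3845 to 3913 and abuts mt-Nd2, the next complex I mRNA. How a read that crosses such a border was assigned, and whether counting used strand, are not given in the sources used here. The value of a tRNA may hold reads of its neighbours or lack reads of its own. Mature tRNAs are also short and structured, and libraries of this kind capture them poorly.

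Depth, as reads counted on the features of the table, was between 41979163 and 50764023 per library. Shares of all reads are shares of these counted reads. The share of all reads on mtDNA was 69.4%, 70.0% and 69.5% in control 490, 498 and 502, against 71.5%, 71.9% and 71.5% in knockout 492, 499 and 501, higher in each knockout library than in any control. The 7 features alone took 51.4% to 52.5% of all reads in the controls and 54.0% to 55.4% in the knockout libraries. Cardiomyocyte markers summed to between 432981 and 477465 normalised counts in control and between 431515 and 463180 in knockout hearts. Markers of endothelial cells, fibroblasts, macrophages and red blood cells also overlapped between the groups in their sums. Taken singly, 1 of 5 macrophage markers lay wholly above the controls and 1 of 5 fibroblast markers wholly below. Of all tested features 4.61% lay wholly above and 4.9% wholly below. In the cardiomyocyte, endothelial and red blood cell lists 0 did either. The 5 skeletal muscle markers together were at 18.9 normalised counts or below. Rexo2 itself was measured at 330, 368 and 293 normalised counts in control 490, 498 and 502, against 274, 288 and 314 in knockout 492, 499 and 501. These overlap, and since the deleted exons are not given in the sources used here, the count does not check the labels. Control 490 held 0.324% of its reads on Gm42418, which overlaps a cytosolic rRNA sequence, and knockout 501 held 0.0501%, against at most 0.00928% in the other libraries. The log2 fold change of each of the 7 features, and the within-library measures in which the groups did not overlap, are given below also without control 490 and without knockout 501.

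Levels per kilobase of feature spanned more than 4 orders of magnitude within this short stretch. mt-Rnr2 was the most abundant feature of the whole table and mt-Rnr1 the third, after mt-Co1. Per kilobase, mt-Rnr2 lay between 12923031 and 14643336 normalised counts over the 6 libraries and mt-Rnr1 between 2654099 and 3025602. The level of mt-Rnr2 per kilobase was 4.51 to 5.01 times that of mt-Rnr1 in every library. Cytosolic rRNA was removed with a depletion kit, per the labels' protocols, and whether that step took the 2 mitochondrial rRNAs unequally was not tested.

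The mRNA mt-Nd1, next on the precursor, lay between 476670 and 560419 normalised counts per kilobase, so mt-Rnr2 was 24.2 to 30.7 times and mt-Rnr1 5.10 to 6.13 times as high. The tRNAs mt-Ti, mt-Tm and mt-Tl1 formed a middle group. mt-Ti lay between 41764 and 56019 normalised counts per kilobase, mt-Tm between 26831 and 33820 and mt-Tl1 between 22739 and 29797. mt-Ti was above mt-Tm in all 6 libraries without overlap of the ranges, while the ranges of mt-Tm and mt-Tl1 overlapped. mt-Tf lay between 289 and 554 and mt-Tv between 265 and 412 normalised counts per kilobase, and these 2 ranges overlapped. The tRNAs at the borders of mt-Rnr1 thus had the lowest values of the 7, and mt-Tl1 exceeded mt-Tv 58.5-fold to 85.7-fold per kilobase although both abut mt-Rnr2.

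**Figure D1:**
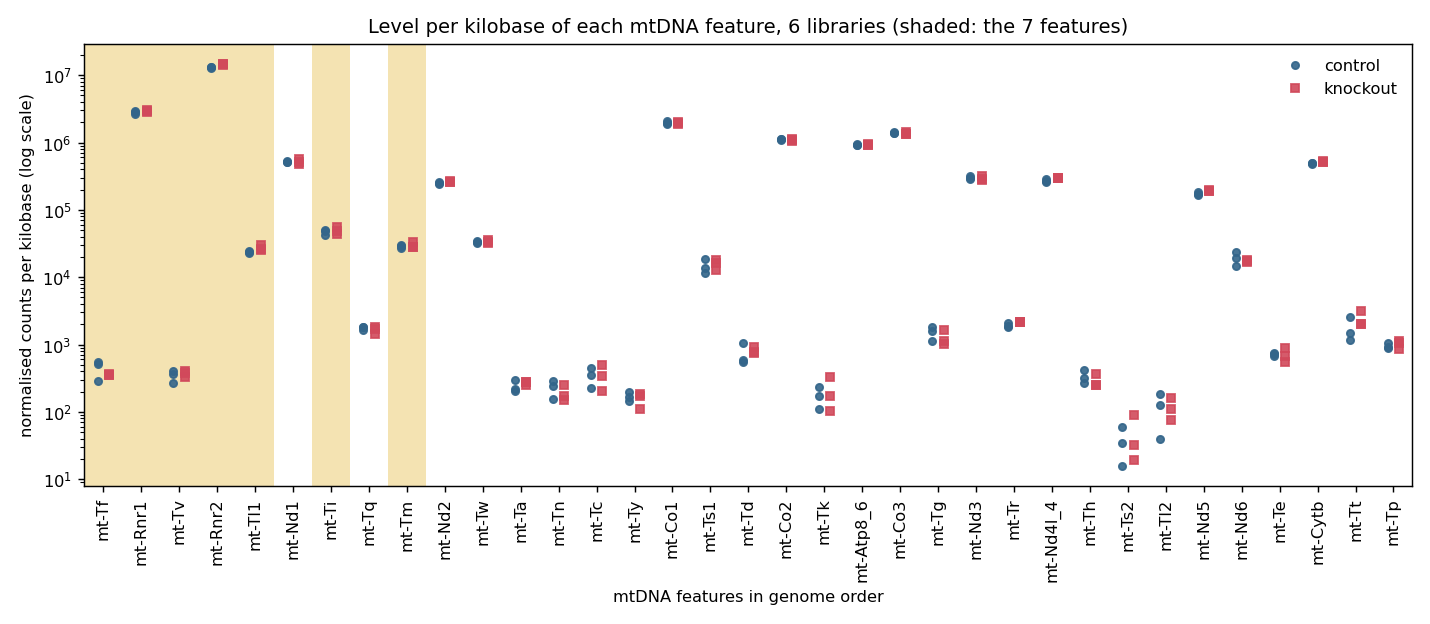
Normalised counts per kilobase (log scale) of the mtDNA features with an annotated length, in genome order, with 1 point per library, control as circles and knockout as squares. The shaded features are the 7 described here: mt-Rnr2 and mt-Rnr1 rank 1 and 2, mt-Ti, mt-Tm and mt-Tl1 lie below the heavy-strand mRNAs, and mt-Tf and mt-Tv lie near the bottom.

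In the comparison of knockout with control hearts, mt-Rnr2 was higher in each knockout library than in any control, by 11.3% on average, and mt-Tl1 likewise, by 14.4%. mt-Rnr1, mt-Ti and mt-Tm overlapped between the groups, with means higher by 4.96%, 5.52% and 4.33%. mt-Tf and mt-Tv were covered by too few reads for a comparison of this size. None of the 7 passed limma's test over 18250 features at an adjusted p of 0.05, a test that called 0.0219% of all features, 4 of them and 0 higher. Of the 7 features 1, mt-Tl1, was higher at an unadjusted limma p under 0.05, where 1.72% of all features were, and 0 were lower, where 1.98% were. Knockout values lay wholly above control values in 2 of the 7 and wholly below in 0, where 4.61% of all tested features lay above and 4.9% below. The median log2 fold change of the 7 was 0.076, with 6 above 0, beside a median of 0.00056 and 50.2% above 0 over all features tested.

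The rRNA of the large subunit, mt-Rnr2, was measured at 20633573, 20890649 and 20444235 normalised counts in control 490, 498 and 502. In knockout 492, 499 and 501 it was measured at 22676784, 23165758 and 23145433. The lowest knockout library thus lay above the highest control library, and the libraries of each group lay close together. The means were 20656153 ± 224062 and 22995992 ± 276629 normalised counts (SD, n = 3 per group). By limma this was a log2 fold change of 0.15 (SE 0.14, 95% interval -0.14 to 0.45, adjusted p = 1.00). On the log2 scale the SD of mt-Rnr2 among libraries of a group was 0.017, while the value that limma expected at this abundance was 0.20 and the value it used was 0.17.

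The call on mt-Rnr2 differed between fits, which set that spread in different ways. edgeR and DESeq2 also differ from limma in their model and scaling. limma without a trend did not call it. limma with robust moderation, which lets single features leave the common trend, called it (adjusted p = 0.0321) among 12 features, 0.0658% of those tested. edgeR on the recovered reads called it as well (adjusted p = 0.00143) among 5 features, 0.0274% of those tested. DESeq2 on the recovered reads gave an adjusted p of 0.0976. In the authors' deposited table it had a log2 fold change of 0.15 (SE 0.045, adjusted p = 0.0978), where that table called 0.437% of the 7550 features with an adjusted p. Over all 19 alternatives to the limma fit the log2 fold change ran from 0.085 to 0.18 and the adjusted p from 0.00143 to 1.00. The 0.085 came from scaling to equal totals, which lowers every feature alike by 0.070. Without control 490 the log2 fold change was 0.15, and without knockout 501 it was also 0.15.

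mt-Rnr1, the rRNA of the small subunit, was measured at 2683501, 2795959 and 2534665 normalised counts in control 490, 498 and 502 and at 2729886, 2889450 and 2792018 in knockout 492, 499 and 501. Control 498 lay above 2 of the 3 knockout libraries, so the groups overlapped. The means were 2671375 ± 131068 and 2803785 ± 80430 (SD, n = 3 per group), and the log2 fold change was 0.071 (SE 0.086, 95% interval -0.11 to 0.26, limma adjusted p = 1.00). Its spread within groups on the log2 scale was 0.058, wider than the 0.017 of mt-Rnr2. Under equal totals its log2 fold change was 0.00045, and the largest value, 0.10, came from leaving out control 498. Without control 490 it was 0.074 and without knockout 501 it was 0.073.

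**Figure D2:**
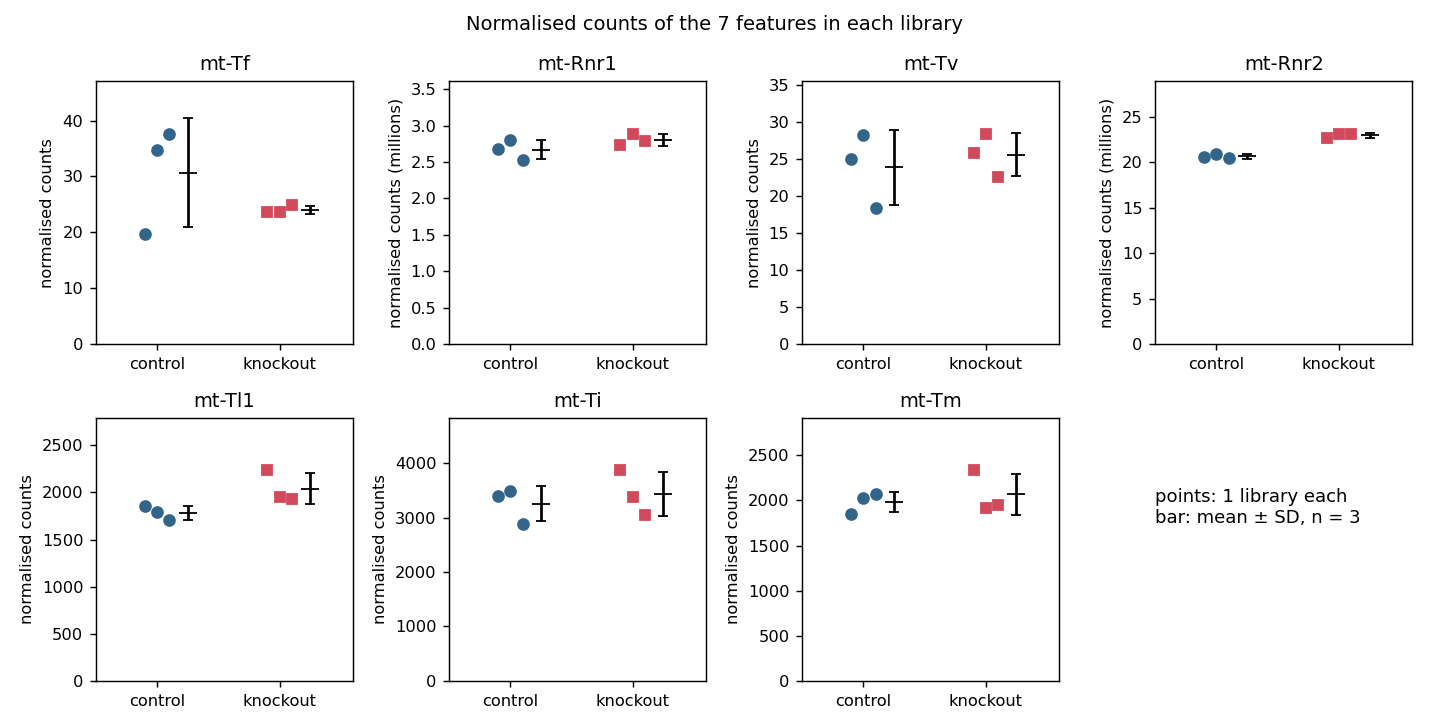
Normalised counts of each of the 7 features by library, each panel with its own axis starting at 0, with the mean ± SD of 3 libraries per group beside the points. The 3 knockout libraries lie above all 3 controls for mt-Rnr2 and mt-Tl1, and the groups overlap for the other features.

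The leucine tRNA mt-Tl1, which reads UUR codons and is cut out between mt-Rnr2 and mt-Nd1, was measured at 1856, 1794 and 1705 normalised counts in control 490, 498 and 502. The knockout libraries 492, 499 and 501 held 2235, 1957 and 1934. All knockout libraries lay above all controls, with knockout 492 well above the other two. The means were 1785 ± 75.6 and 2042 ± 168 (SD, n = 3 per group). By limma this was a log2 fold change of 0.19 (SE 0.064, 95% interval 0.055 to 0.33, unadjusted p = 0.00955, adjusted p = 1.00). It was 0.12 without knockout 492, more than 1.5 times smaller, 0.22 without control 490 and 0.23 without knockout 501. The authors' deposited table gave it a log2 fold change of 0.19 (SE 0.075, adjusted p = 0.927).

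mt-Ti, the isoleucine tRNA, held 3389, 3489 and 2882 normalised counts in control 490, 498 and 502, against 3865, 3380 and 3053 in knockout 492, 499 and 501. The lowest value was in a control and the highest in a knockout library, and knockout 499 and 501 lay below control 490 and 498. Its log2 fold change was 0.076 (SE 0.084, limma adjusted p = 1.00). mt-Tm, the methionine tRNA that serves both to start and to extend mitochondrial proteins, held 1851, 2025 and 2068 normalised counts in these controls. The knockout libraries, in the same order, held 2334, 1917 and 1951. Only knockout 492 lay above the controls, and the other knockout libraries lay within their range. The log2 fold change of mt-Tm was 0.057 (SE 0.074, limma adjusted p = 1.00). Knockout 492 was the highest of the 6 libraries for mt-Tl1, mt-Ti and mt-Tm alike, and without it the log2 fold change was -0.013 for mt-Ti and -0.033 for mt-Tm. For mt-Ti it was 0.11 without control 490 and 0.16 without knockout 501. For mt-Tm it was 0.0089 without control 490 and 0.096 without knockout 501.

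The 2 tRNAs that flank mt-Rnr1 rested on few reads. mt-Tf was covered by 22, 37 and 37 reads in control 490, 498 and 502 and by 22, 25 and 22 in knockout 492, 499 and 501. A count of 22 has a 95% exact Poisson interval from 13.8 to 33.3, and a count of 37 one from 26.1 to 51.0. These intervals overlap, but they cover counting error only. In normalised counts the spread of mt-Tf was 1.78 times counting noise among the controls and 0.14 times among the knockout libraries. As normalised counts the means were 30.7 ± 9.67 and 24.0 ± 0.680 (SD, n = 3 per group), and the log2 fold change was -0.29 (SE 0.28, 95% interval -0.89 to 0.32, limma adjusted p = 1.00). Control 490 alone lay below the knockout libraries, and without it the log2 fold change was -0.57, against -0.31 without knockout 501.

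For mt-Tv, whose tRNA is also a structural part of the large mitochondrial ribosomal subunit in human cells, the reads were 28, 30 and 18 in the controls and 24, 30 and 20 in the knockout libraries. The groups overlapped throughout. The means were 23.8 ± 5.05 and 25.6 ± 2.93 normalised counts (SD, n = 3 per group). The log2 fold change of mt-Tv was 0.11 (SE 0.27, 95% interval -0.46 to 0.69, limma adjusted p = 1.00), and it was -0.059 without control 502, 0.16 without control 490 and 0.20 without knockout 501. Its interval allows changes of this tRNA in either direction that are larger than those seen for any rRNA.

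**Figure D3:**
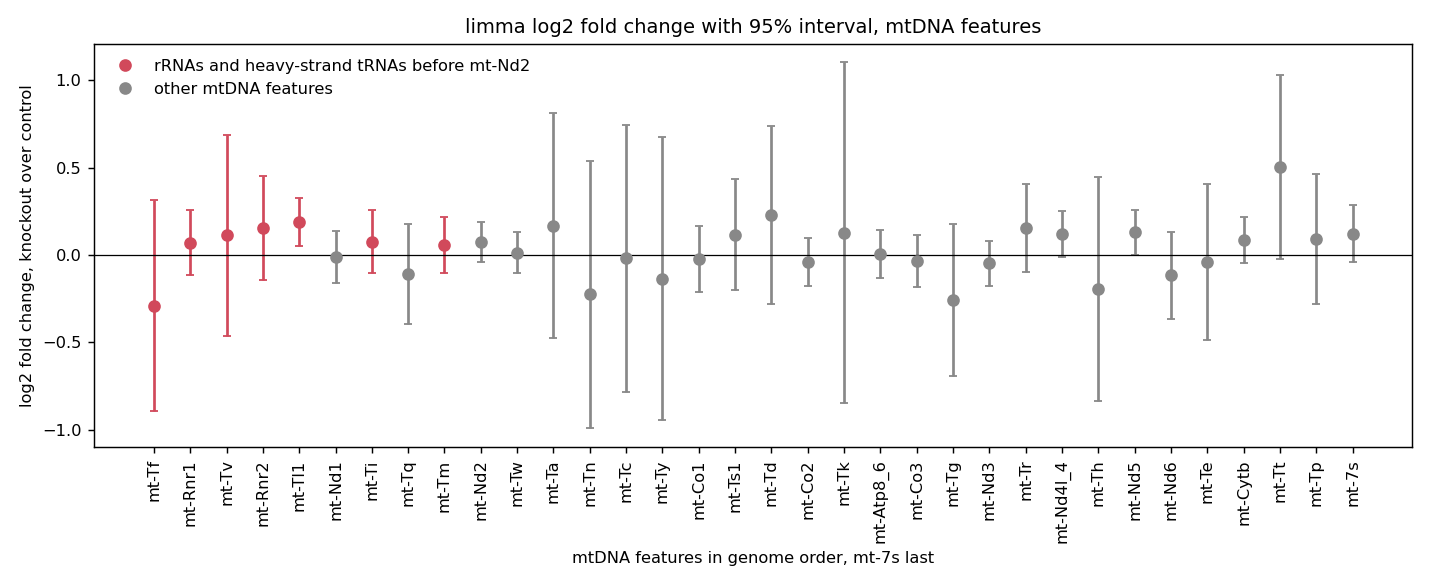
limma log2 fold change of knockout over control with its 95% interval for the 34 mtDNA features tested, in genome order with mt-7s last. Among the 7 features in red, the interval of mt-Tl1, 0.055 to 0.33, lies above 0, and those of mt-Tf and mt-Tv are the widest.

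Other mtDNA features of the same strand give the scale for these values. Over all tested features 4.61% lay wholly above the controls. Of the 10 heavy-strand mRNAs 0 were called by limma, 5 had a log2 fold change above 0 (median -0.0029) and 4 lay wholly above the controls. Those 4 had log2 fold changes from 0.073 to 0.13, beside 0.15 for mt-Rnr2, and 1 had an unadjusted limma p under 0.05. The lowest of the 5 mRNAs below 0 was at -0.048, and 0 lay wholly below the controls. Of the 9 heavy-strand tRNAs after mt-Nd2, 7 could be tested, 0 were called, 5 were above 0 (median 0.13) and 1 lay wholly above the controls. The 5 tRNAs before mt-Nd2 had 4 above 0, a median of 0.076 and 1 wholly above the controls. In edgeR, limma with robust moderation, DESeq2 and the authors' deposited table, at most 1 of the 7 features was called, mt-Rnr2. DESeq2 and the deposited table gave mt-Tf and mt-Tv no adjusted p, so these could not be called there.

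Ratios within a library do not depend on the scaling between libraries, and 15 of them were compared together with the share of reads on each of the 7 features, 22 measures in all. With 3 libraries against 3 the smallest p of an exact permutation test is 0.1, so none could reach 0.05, and adjusted over the 22 measures the smallest p was 0.733. Knockout and control libraries did not overlap in 3 measures: the share of reads on mt-Rnr2, mt-Rnr2 over the heavy-strand mRNAs, and mt-Tl1 over mt-Nd1. The share of mt-Rnr2 and its ratio to the mRNAs rest on the same mt-Rnr2 reads, so they are not independent. In levels of single features, 4.61% of all tested features lay wholly above the controls and 4.9% wholly below. Whether 3 of 22 is more than unrelated measures would give was not tested.

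mt-Rnr2 took 46.0% ± 0.422 of all reads in control and 48.7% ± 0.536 in knockout libraries (SD, n = 3 per group), a difference of 2.78 percentage points (exact permutation test, 2-sided, p = 0.1). It was 2.54 points without control 490 and 2.72 without knockout 501. The share of mtDNA as a whole was also higher in knockout, but it includes mt-Rnr2 and so does not show a rise of the other mtDNA features. Among mtDNA reads alone the share of mt-Rnr2 differed by 2.05 points (exact permutation p = 0.1). For mt-Rnr1 the mean share was 5.94% in both groups. Of the mtDNA reads, both rRNAs together made up 74.1%, 75.0% and 74.6% in control 490, 498 and 502, against 75.5%, 77.0% and 76.6% in knockout 492, 499 and 501. All 3 knockout shares lay above the controls, knockout 492 by the least. Such shares add up to a fixed total, so a higher share of mt-Rnr2 lowers the others.

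Set against the sum of the 10 heavy-strand mRNAs of the same library, mt-Rnr2 stood at 2.54, 2.65 and 2.62 reads per mRNA read in control 490, 498 and 502 and at 2.76, 2.98 and 2.93 in knockout 492, 499 and 501. The groups did not overlap. The log2 ratio was higher by 0.15 (SE 0.039) in knockout (exact permutation test, 2-sided, p = 0.1). Leaving out 1 library at a time gave 0.13 to 0.18, with 0.13 without control 490 and 0.14 without knockout 501. The sum weighs the most abundant mRNAs most, mt-Co1 first. With the mean of the log2 mRNA values in its place, which weighs each mRNA alike, the difference was 0.13 (exact permutation p = 0.1). For mt-Rnr1 over the same mRNAs the groups overlapped, with ratios of 0.330, 0.354 and 0.324 in control and 0.332, 0.372 and 0.353 in knockout libraries and a log2 difference of 0.067 (exact permutation p = 0.3). The ratio of both rRNAs to each other, mt-Rnr2 over mt-Rnr1, was 7.69, 7.47 and 8.07 in control and 8.31, 8.02 and 8.29 in knockout libraries. Control 502 lay above knockout 499, so the groups overlapped, and the log2 difference was 0.084 (SE 0.036, exact permutation p = 0.2). A difference in response between mt-Rnr2 and mt-Rnr1 was therefore not separated from the spread between libraries.

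mt-Tl1 was compared with the features on either side of it. Over mt-Nd1 it stood at 3.60, 3.64 and 3.52 reads per 1000 mt-Nd1 reads in control 490, 498 and 502. The knockout libraries 492, 499 and 501 held 4.17, 3.99 and 4.24 per 1000. mt-Nd1 itself overlapped between the groups, at 484110 to 515048 normalised counts in control and 456174 to 536321 in knockout libraries. Its limma log2 fold change was -0.012, and its spread enters this ratio beside that of mt-Tl1. In the ratio the groups did not overlap, the libraries of each group lay close together, and knockout 492 no longer stood apart. The log2 difference was 0.20 (SE 0.029, exact permutation test, 2-sided, p = 0.1), 0.21 without control 490, 0.23 without knockout 499 and 0.18 without knockout 501. Over mt-Rnr2 the groups overlapped, with 89.9, 85.9 and 83.4 mt-Tl1 reads per 1000000 mt-Rnr2 reads in control and 98.6, 84.5 and 83.5 in knockout libraries. That log2 difference was 0.037 (exact permutation p = 0.8) and -0.040 without knockout 492. As a share of all reads mt-Tl1 overlapped as well, at 39.7 ± 1.22 and 43.3 ± 3.63 reads per 1000000 (SD, n = 3 per group, exact permutation p = 0.2).

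The other ratios of tRNAs to their neighbours overlapped between the groups. mt-Ti stood at 6.58, 7.07 and 5.95 reads per 1000 mt-Nd1 reads in control and 7.21, 6.89 and 6.69 in knockout libraries, a log2 difference of 0.087 (exact permutation p = 0.4). mt-Tm stood at 7.31, 7.73 and 7.72 reads per 1000 mt-Nd2 reads in control and at 8.30, 7.09 and 7.17 in knockout libraries, a log2 difference of -0.016 (exact permutation p = 0.8). The ratio of mt-Ti to mt-Tm ranged from 1.39 to 1.83 over the controls, wider than the 1.57 to 1.76 of the knockout libraries. For mt-Tf over mt-Rnr1 the log2 difference was -0.37 (exact permutation p = 0.4), and for mt-Tv over mt-Rnr1 and over mt-Rnr2 it was 0.047 and -0.037 (exact permutation p = 0.8 and 0.9). These 3 rest on the few reads of mt-Tf and mt-Tv. Against mt-7s, an RNA from the light-strand promoter, mt-Rnr2 had a log2 difference of 0.032 with overlap (exact permutation p = 0.5).

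**Figure D4:**
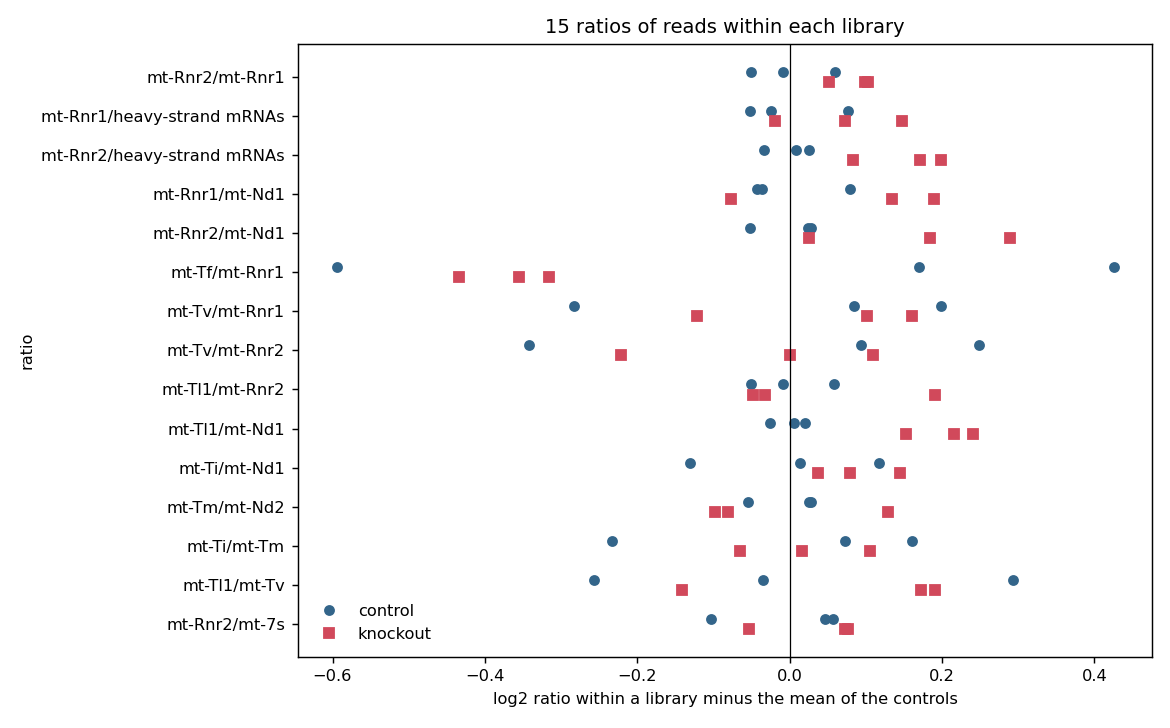
Log2 ratios of reads within each library for 15 pairs of features, minus the mean of the 3 controls, with 1 point per library. The knockout squares lie to the right of all control circles for mt-Rnr2 over heavy-strand mRNAs and for mt-Tl1 over mt-Nd1, and the groups overlap in the other 13 ratios.

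The pattern of mt-Rnr2 over the 6 libraries was set beside that of the 13594 features whose mean was 50 normalised counts or more, by the root mean square distance between log2 values centred on their own mean. The nearest 3 were Armh3, Angpt1 and Sod3, at 0.013, 0.017 and 0.019, with limma log2 fold changes of 0.14, 0.17 and 0.15. mt-Rnr1 came at place 284, at 0.056. For mt-Rnr1 the nearest were Prune1, Prdx5 and Tmem183a, at 0.0067, 0.013 and 0.018, and mt-Rnr2 came at place 632. The likeness is a description over 6 libraries and says nothing of shared function.

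Nuclear genes that act on these RNAs were described by 4 lists. In them limma called 0 features, and 0 were at an unadjusted p under 0.05. In the order below, knockout values lay wholly above the controls in 1, 1, 0 and 2 of the tested genes. They lay wholly below in 0, 0, 3 and 0. Of all tested features 4.61% lay wholly above and 4.9% wholly below. The list of mitochondrial transcription and termination held 11 tested genes, of which 5 were above 0 (median log2 fold change -0.00091). Its members of smallest p were Rexo2 at -0.17 and Mterf2, a relative of MTERF1, at 0.15 (373 ± 33.6 against 413 ± 14.8 normalised counts, SD, n = 3 per group). Of 14 genes that process the precursor and the tRNA ends 13 were tested, with 8 above 0 and a median of 0.018. Trnt1, which adds CCA to tRNA ends, was at 0.16 and Fastkd5, which acts on mRNA ends without a tRNA, at 0.22. Of 22 genes of rRNA modification and ribosome assembly 21 were tested, with 10 above 0 and a median of -0.030. Mrm1, which methylates the rRNA of the large subunit, was at -0.21 and Tfb1m, which dimethylates that of the small subunit, at 0.27. The 16 genes that charge or modify the 5 tRNAs had 7 above 0 and a median of -0.018, with Mtfmt, which formylates the methionine on its initiator tRNA, at 0.27 and Mars2, which charges the methionine tRNA, at 0.12. Each named gene had a limma adjusted p of 1.00.

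**Figure D5:**
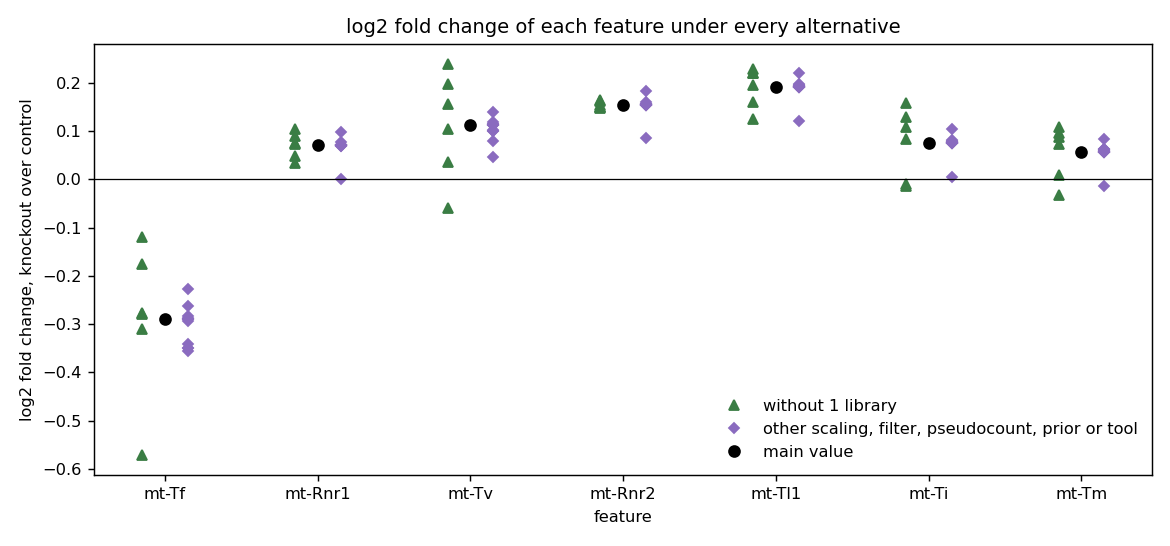
Log2 fold change of each of the 7 features in the limma fit (black), without 1 library at a time (triangles) and under other scalings, filters, pseudocounts, priors or tools (diamonds). The values of mt-Rnr2 stay between 0.085 and 0.18 and those of mt-Tl1 between 0.12 and 0.23, while those of mt-Tv, mt-Ti and mt-Tm fall on both sides of 0.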

How the data were processed

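The authors deposited a table of normalised counts (signal per feature, counts divided by 1 size factor per library); the submitters' processing notes list DESeq2 1.22.2, featureCounts, R 3.5.2, Bowtie2 2.3.4.1 and bedtools, and the builds GRCm38 and mm10, with no roles. They also deposited a table of baseMean, log2 fold changes, a test score and p-values, used only as given. Dividing each library by what 1 read was worth in it gave whole numbers for 100% of 156689 nonzero values (tolerance 0.01), and these recovered reads gave depths, shares and ratios. Of 54715 Ensembl identifiers 54686 matched a symbol, and 35 of 36 mtDNA features matched the RefSeq table, which gave positions and lengths.

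The main test was limma 3.58.1 in R 4.3.3 with a trended prior on log2(value + 1), which understates changes of low features, for 18250 features whose mean was 10 or more, 2-sided, genotype as the only term, Benjamini-Hochberg adjustment at 0.05. It was tested on simulated data, in which the smallest planted change was larger than the differences of mt-Rnr2 and mt-Tl1. That test therefore says nothing of changes as small as these. Alternatives were a pseudocount of 0.5 or 10, no filter or a mean of 50, 4 scalings, 2 priors, edgeR 4.0.16 (5 features called) and DESeq2 1.42.0 on recovered reads, the authors' deposited table, and each library left out. Named genes are the 7 features, their partners in ratios, Rexo2, the 3 nearest patterns per rRNA and the 2 members of smallest p per list. Lars2, Gm42418 and Rn7s2 were added after their values were seen. The features and lists were chosen with earlier results of these data known. Over features outside mtDNA, no libraries of a group agreed within counting noise (chi-square over degrees of freedom, 2.60 to 13.9). The 7 features do not enter that measure.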

Additional observations from a re-analysis of the deposited data

How the results depend on the processing

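No paired analysis was possible because the table columns carry no replicate numbers of the labels. Over all features limma called 4, and the count was 12 without a filter on low values, 12 with robust moderation, 37 under equal totals, 0 without a trend (limma, 835 features at an unadjusted p under 0.05, against 675 with it), 33 with DESeq2, 33 in the authors' deposited table, and 1 to 8 with 1 library left out. Of the 7 features 0 were called, but 1, mt-Rnr2, with robust moderation and 1 with edgeR. For single features, mt-Tm was at -0.013 under equal totals. Leaving out 1 library gave log2 fold changes from -0.033 (without knockout 492) to 0.11 for mt-Tm, from -0.013 (without knockout 492; -0.0092 without control 502) to 0.16 for mt-Ti and from -0.059 (without control 502) to 0.24 for mt-Tv. mt-Rnr1, mt-Rnr2, mt-Tf and mt-Tl1 kept their sign in every alternative run. Leaving out 1 library, the log2 difference ran from -0.094 to 0.15 for mt-Tv over mt-Rnr1, from -0.21 to 0.087 for mt-Tv over mt-Rnr2, from -0.040 to 0.079 for mt-Tl1 over mt-Rnr2, from -0.089 to 0.024 for mt-Tm over mt-Nd2, from -0.098 to 0.099 for mt-Ti over mt-Tm, from -0.055 to 0.22 for mt-Tl1 over mt-Tv and from -0.020 to 0.074 for mt-Rnr2 over mt-7s. In the same fits the share on mt-Rnr1 differed by -0.112 to 0.126 percentage points, and reads per 1000000 by -0.0460 to 0.0599 for mt-Tv, -4.21 to 4.60 for mt-Ti and -3.15 to 1.26 for mt-Tm. As shares of mtDNA reads the differences were -0.236 points for mt-Rnr1, -0.00366 reads per 1000000 for mt-Tv and -2.25 for mt-Ti, and as a share of reads not on mt-Rnr2 that of mt-Tm was 3.78. The cause of these changes was not tested. Equal totals moved the median log2 fold change of all features by -0.070, the other 3 scalings by at most 0.027. Depth limits mt-Tf and mt-Tv, with 18 to 37 reads per library.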

Other observations

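Lars2, the synthetase that charges mt-Tl1, had a log2 fold change of -1.38 (limma adjusted p = 1.00). Control 490 held 20198 normalised counts of it and knockout 501 held 3123, against 607, 240, 235 and 227 in control 498, control 502, knockout 492 and knockout 499. Gm42418 held 146938 and 23716 normalised counts in the first 2 of these libraries and 4190, 1641, 1398 and 1421 in the others. Lars2 stood at 132 to 168 counts per 1000 Gm42418 counts in all 6 libraries. Whether the counts of Lars2 hold reads of the Gm42418 locus was not tested. The high control raises the control mean and the high knockout library raises the knockout mean.

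In the list of cytosolic rRNA left after depletion and other abundant noncoding RNAs, the members of smallest p were Gm26917 and Rn7s1. Gm26917 held 44138 ± 2512 and 39529 ± 6449 normalised counts (SD, n = 3 per group) with overlap, a log2 fold change of -0.17 (limma adjusted p = 1.00). Rn7s1, a copy of the RNA of the signal recognition particle, was at 439219, 462117 and 462735 normalised counts in control 490, 498 and 502. In knockout 492, 499 and 501 it was at 418799, 405660 and 438064. All knockout libraries lay below the controls, with a log2 fold change of -0.11 (limma adjusted p = 1.00). The near-identical Rn7s2 had a log2 fold change of -0.11 with overlap, and reads of these copies may be divided between them in ways not given in the sources used here.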
